A study of Mus musculus with 12 samples.

Results

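Mouse keratinocytes that overexpressed DeltaNp63alpha were compared with keratinocytes that overexpressed beta-galactosidase, both kept in low calcium, on 6 of the 12 arrays of the study, chosen by their low calcium label. A probe was included where at least 2 of the 3 dye-swap pairs had a value, which held for 4810 of 9558 probes, against 7682 in high calcium. After probes of the same gene were averaged, 4637 rows were tested, 3613 with a gene name and 1024 without. With the reversed arrays turned, 17 named genes fell with DeltaNp63alpha and no named gene rose. The largest falls were in the proliferin Prl2c5 (4.92-fold), the cornified envelope gene Sprr1a (4.45-fold), the exonuclease gene Trex2 (2.84-fold) and the plasminogen activator inhibitor Serpinb2 (2.65-fold). The others included genes of adhesion, matrix, caveolae, actin, proteolysis and retinoic acid handling, an annexin, an S100 gene and genes of none of these groups. Among them was Serpinb5, which encodes maspin, the protein in the title of the study.

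The cells were primary keratinocytes from the skin of C57Bl/6NCr mice, grown in medium with 0.05 mM calcium. Each culture received an adenovirus, encoding either DeltaNp63alpha or, in the controls, beta-galactosidase, and both stayed for 24 h in 0.05 mM calcium before harvest, 41 h after transduction. The high calcium arrays, used here beside the low calcium ones, compared the same pair of viruses at 0.12 mM. No cells without virus are among the labelled groups, so the control carries the effect of transduction too, and neither the age of the mice nor the number of cultures or mice behind the RNA is given in the sources used here. The labels describe the hybridisations as technical repeats. The p-values below therefore measure the spread between hybridisations, which may be technical.

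The protein p63 belongs to the p53 family and binds response elements like those of p53. DeltaNp63alpha, which lacks the amino-terminal activation domain, is the main form in the basal layer of the epidermis, where it keeps cells attached and able to divide, and it can repress as well as activate its targets. Low calcium holds mouse keratinocytes in a basal, dividing state, and a rise in calcium starts differentiation. Maspin is a serpin known as a tumour suppressor and as a target of the p53 family.

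Each array compared both RNAs directly. In each of 3 repeats DeltaNp63alpha RNA was labelled once with Cy5 (the forward array) and once with Cy3 (the reversed array). A pair value is the mean of the forward ratio and the reversed ratio with its sign turned, so that on the log2 scale 0 is no difference and -1 is 1 unit lower with DeltaNp63alpha. All values below are log2 ratios read this way, with reversed arrays turned, unless they are called deposited. The files hold ratios and no levels, so the labelled cell type could not be checked by the level of its markers. A ratio also cannot tell fewer cells of a type from less RNA per cell.

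The direction of these ratios is not settled, and "fell" and "rose" below hold for values read as Cy5 over Cy3, with reversed arrays turned. The dye of the numerator is not given in the sources used here, and in the labels the second channel is DeltaNp63alpha on every array, forward or reversed. As deposited, forward and reversed values of a repeat correlated positively over all probes (r = 0.216, 0.712 and 0.607 in repeats 1, 2 and 3), so a large part of the signal did not change sign with the dyes. The genes called here did: among the 19 called rows, deposited forward and reversed values had opposite signs in 19 of 19, 14 of 18 and 11 of 16 rows in repeats 1, 2 and 3, against 38.5%, 20.8% and 29.6% of all rows tested. A sign change is what the pair value selects for, so these shares are a description. With the deposited signs kept on every array, the pair values of the repeats correlated more strongly with each other than with the signs turned (r = 0.563, 0.481 and 0.778 for repeats 1 and 2, 1 and 3, and 2 and 3, against 0.0738, 0.346 and -0.0787). In that reading 719 rows passed the test and 16 of the 19 took the other sign.

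The gene that was overexpressed did not settle the direction either. Trp63 had values in repeats 1 and 2 only. Its forward arrays read -0.983 and -0.999, and its reversed arrays, turned, read -0.57 and 1.91. The pair values of -0.78 and 0.45 lay on both sides of 0, with a mean of -0.16 ± 0.25 (SE, n = 2 pairs, limma adjusted p = 0.924). With the deposited signs kept, both of its low calcium pair values were below 0. In high calcium its turned pair values were -0.59 and -0.51, with a mean of -0.55 ± 0.25 (SE, n = 2 pairs, adjusted p = 0.436). Whether the spotted Trp63 sequence is contained in the viral insert is not given in the sources used here. Trp73, the family member named in the title beside maspin, had pair values of 0.17, 0.15 and 0.13 and a mean of 0.15 ± 0.14 (SE, n = 3 pairs, adjusted p = 0.827).

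Coverage limited the low calcium arrays. Between 39.6% and 93.5% of the probes had a value on an array, and the median absolute deviation ranged from 0.415 to 1.32. Repeat 1 had 8426 probes with a pair value, repeat 2 had 4702 and repeat 3 had 2967. As a description over probes of a shared RNA source, turned pair values correlated at r = 0.0738 (repeats 1 and 2, 4237 probes), 0.346 (repeats 1 and 3, 2702 probes) and -0.0787 (repeats 2 and 3, 2549 probes). The called genes stand away from this cloud in each plot of one repeat against another. They were picked on these same pair values, so their place in the plots is a description.

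**Figure D1:**
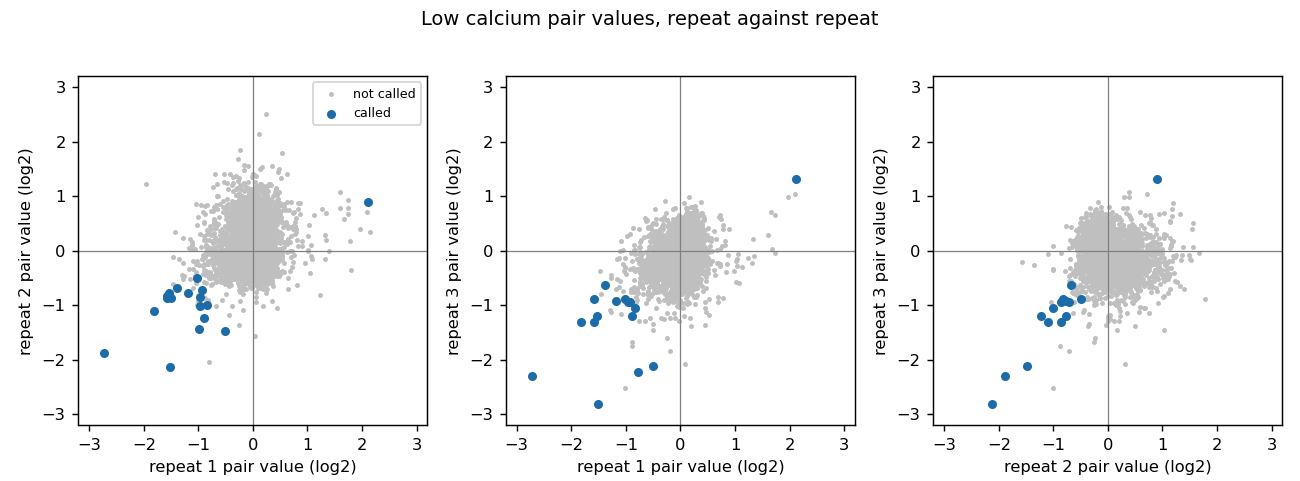
Pair values (log2 ratio, DeltaNp63alpha over beta-galactosidase) of one low calcium repeat against another, with a point for each row that has both values. Called rows, picked on these same values, are blue and lie at the lower left, apart from the unnamed row that was higher, while the grey cloud has little slope (r = 0.0738, 0.346 and -0.0787 over probes).

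Across all 4637 rows the middle of the distribution was narrow. The median ratio was 0.0185, 90% of rows lay between -0.423 and 0.405, and 2146 were below 0 against 2491 above. At a Benjamini-Hochberg adjusted p under 0.05 in limma, 19 rows (0.41%) were called, 18 of them lower with DeltaNp63alpha (0.388%) and 1 higher (0.0216%). At an unadjusted p under 0.05 there were 252 rows below 0 and 192 above. Of the called rows, 15 had all 3 pairs and 4 had 2, and the smallest called difference was 0.802. Crabp2, Trex2 and Serpinb5 lay just inside the threshold (adjusted p = 0.0422, 0.0422 and 0.0472), and Esd and Manf just outside (both 0.0654).

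**Figure D2:**
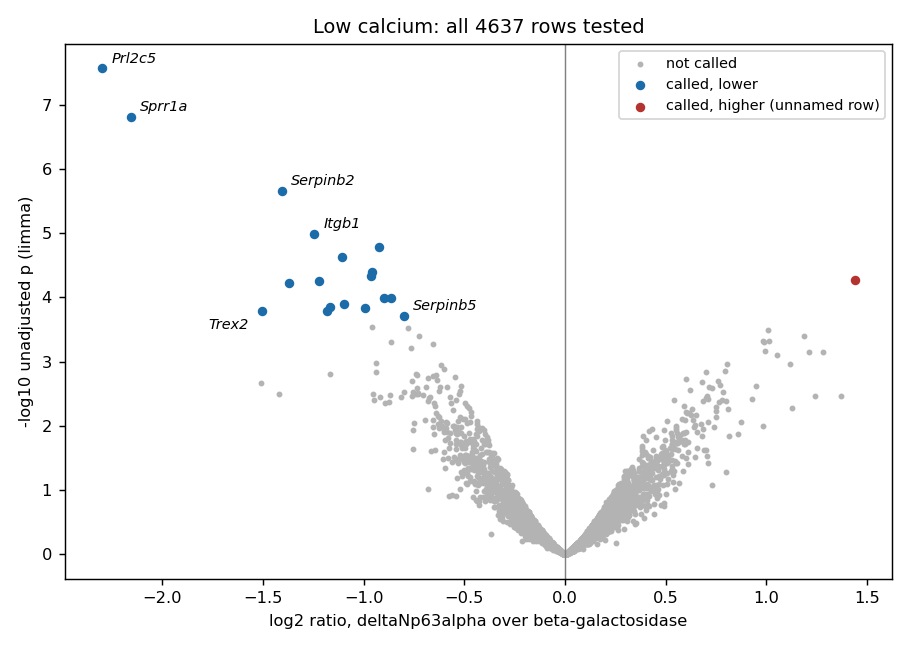
Each point is a row tested in low calcium, with its log2 ratio on the horizontal axis and -log10 of limma's unadjusted p on the vertical axis. The 18 called lower rows (blue) reach -2.30, and a single unnamed row (red, 1.44) was called higher.

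The calls differ in how firmly they stand. Prl2c5, Sprr1a and Serpinb2 stayed below an adjusted p of 0.05 without any 1 of the 3 low calcium repeats (highest adjusted p 0.0333, for Serpinb2 without repeat 1). The other 14 named genes lost the call, or had too few pairs left, without at least 1 of the low calcium repeats. Without repeat 1 there were 6 calls in all, without repeat 2 there were 10 and without repeat 3 there were 5. When all arrays were brought to the same spread no row was called (276 rows had an unadjusted p under 0.05), and when a pair with 1 missing array was kept at the other array none was called either (516 rows).

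**Figure D3:**
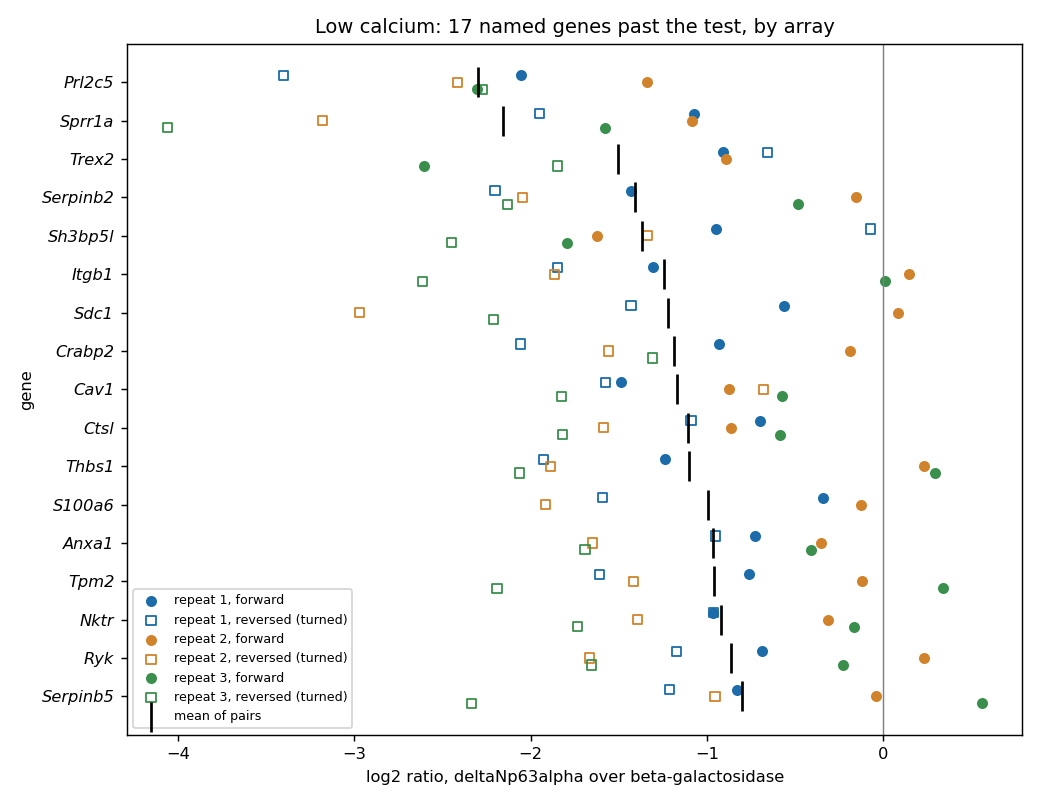
Log2 ratio of the 17 named called genes on each low calcium array, with forward arrays as filled circles, turned reversed arrays as open squares, repeats by colour, and the mean of pairs as a black bar. Every reversed value lies left of 0, while some forward values of repeats 2 and 3 lie at or right of 0.

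The dyes contributed unequally to the falls. Among the 18 called lower rows, the deposited median on the forward arrays was -0.938, -0.252 and -0.409 in repeats 1, 2 and 3, and on the reversed arrays it was 1.51, 1.65 and 2.06. All reversed values were above 0 as deposited, which is lower with DeltaNp63alpha. Forward values went the other way for 4 rows in repeat 2 and 5 rows in repeat 3. Forward arrays alone called 2 of the 19, Prl2c5 and Sprr1a, and reversed arrays alone called 15.

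Prl2c5 encodes a proliferin, a secreted protein of the prolactin family. Its forward arrays read -2.05, -1.34 and -2.31 in repeats 1 to 3, and its reversed arrays -3.40, -2.42 and -2.27. All 6 arrays were low, and Prl2c5 fell by 2.30 ± 0.18 (SE, n = 3 pairs, limma adjusted p = 0.000127). Proliferin genes are near-identical copies, so the spots may not tell them apart. A spot annotated as Prl2c2 had pair values of -1.02 and -0.13, in repeats 1 and 3, and a mean of -0.58 ± 0.35 (SE, n = 2 pairs, adjusted p = 0.682). Of 4 tested members of the prolactin family list, 1 fell, and the median of the list was -0.415 against 0.0185 over all rows.

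Sprr1a codes for a small proline-rich protein that is cross-linked into the cornified envelope, the protein shell of the outermost epidermal cells. Forward arrays read -1.08, -1.09 and -1.58 for it, and reversed arrays -1.95, -3.18 and -4.06. It was low on all 6 arrays, and the pair values of -1.51, -2.13 and -2.82 gave a fall of 2.15 ± 0.21 (SE, n = 3 pairs, adjusted p = 0.000359). It was the only member of the cornified envelope list to fall, of 6 tested, none rose, and 3 were below and 3 above 0. The other members differed among themselves. Flg, the precursor of filaggrin, had a low value on every array and pair values of -1.018, -1.003 and -2.515, yet its mean of -1.51 ± 0.40 did not pass the test (SE, n = 3 pairs, adjusted p = 0.184). The late envelope gene Lce1m read -1.42 ± 0.39 (SE, n = 2 pairs, adjusted p = 0.192), and its relative Lce1l, which is not in the list, read -1.17 ± 0.30 (SE, n = 3 pairs, adjusted p = 0.164). Lor, which encodes the main envelope protein loricrin, had pair values of 0.13, -0.29 and 0.16, on both sides of 0. Above 0 were Ppl, the plakin periplakin, at 0.49 ± 0.21 (SE, n = 2 pairs of 0.43 and 0.55, adjusted p = 0.477), and Tgm3, a transglutaminase, at 0.13 ± 0.20 (SE, n = 2 pairs, adjusted p = 0.924), with pair values of -0.13 and 0.39. Krt10, a keratin of differentiating cells, had only the pair value of repeat 1, -1.32, and was not tested. The list's median was -0.709.

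Among the 10 serpins tested, 2 fell, none rose, and the median was 0.158. Serpinb2, which blocks urokinase and tissue plasminogen activator and is abundant in keratinocytes, read -1.43, -0.16 and -0.48 on forward arrays and -2.20, -2.04 and -2.13 on reversed arrays. No array was above 0, and it fell by 1.41 ± 0.17 (SE, n = 3 pairs, adjusted p = 0.00337). Serpinb5 read -0.83, -0.04 and 0.56 on forward arrays and -1.21, -0.95 and -2.34 on reversed arrays. Its forward array of repeat 3 thus went against the other 5, and maspin's fall of 0.80 ± 0.16 (SE, n = 3 pairs, adjusted p = 0.0472) was the smallest and the last to pass. The pair values were -1.02, -0.50 and -0.89. Without repeat 1 the adjusted p of Serpinb5 was 0.246, and without repeat 3 it was 0.176. Serpina1b, a liver-type inhibitor, stood at 0.64 ± 0.21 (n = 2 pairs, adjusted p = 0.308).

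Serpinb5 and Serpinb2 lie in a cluster of 12 coding genes that runs from Serpinb5 to Serpinb8 in the RefSeq annotation of GRCm38.p6. The third tested member of that stretch was Serpinb8, with pair values of 0.14, 0.28 and 0.08. Ppl, Tgm3 and Serpinb8 are named outside the rule for named genes, after their values were seen. Sprr1a lies in the epidermal differentiation complex, the gene cluster for envelope and S100 proteins, taken here from S100a1 to S100a10. Of its 70 coding genes 10 were tested, 2 fell (Sprr1a and S100a6), 9 were below 0, and the median was -0.834. Some of the 9 lay near 0, between -0.0695 and -0.011, with pair values on both sides of 0.

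The 250 bases before the start of Sprr1a, Serpinb2 and Serpinb5 are shown because these epithelial genes fell together and were the 3 called genes with an AP-1 motif there. AP-1 is the Fos and Jun dimer, which drives many genes of keratinocyte differentiation. Sequences are from RefSeq (GRCm38.p6), 5' to 3' on the strand of the gene, with the AP-1 motif TGANTCA and the TATA box TATAAA in capitals.
Sprr1a, chr3:92485882-92486131, minus strand: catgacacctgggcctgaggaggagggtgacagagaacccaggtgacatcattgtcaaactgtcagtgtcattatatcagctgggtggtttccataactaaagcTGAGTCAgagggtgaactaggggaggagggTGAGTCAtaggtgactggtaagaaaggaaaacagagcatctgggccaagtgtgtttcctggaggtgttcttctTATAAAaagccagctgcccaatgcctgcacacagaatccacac
Serpinb2, chr1:107511173-107511422, plus strand: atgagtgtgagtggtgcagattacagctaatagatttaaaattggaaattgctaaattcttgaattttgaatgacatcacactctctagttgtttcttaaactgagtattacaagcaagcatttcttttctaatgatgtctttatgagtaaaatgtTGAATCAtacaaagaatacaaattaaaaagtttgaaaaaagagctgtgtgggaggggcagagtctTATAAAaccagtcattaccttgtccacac
Serpinb5, chr1:106860925-106861174, plus strand: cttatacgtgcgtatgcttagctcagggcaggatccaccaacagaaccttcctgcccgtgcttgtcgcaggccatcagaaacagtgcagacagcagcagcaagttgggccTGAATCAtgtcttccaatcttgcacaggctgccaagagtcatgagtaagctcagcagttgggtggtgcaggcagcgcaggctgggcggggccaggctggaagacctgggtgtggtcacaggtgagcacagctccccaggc

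In these letters Sprr1a has AP-1 motifs 146 and 116 bases before its start and a TATA box at 43. Serpinb2 has an AP-1 motif at 94 and a TATA box at 29. Serpinb5 has an AP-1 motif at 140 and no TATAAA. Of the 17 named called genes 15 were in the promoter table, all but Thbs1 and Crabp2. With both strands searched, TGANTCA occurred in 3 of the 15, against 6.7% of 32851 promoters and 5.2% of the 3640 promoters of tested genes. TATAAA occurred in 5 of 15 (12.4% of all promoters, 8.5% of tested ones), the GC box GGGCGG in 8 of 15 (32.7% and 53.9%), and the decamer of the p53 family response element in 2 of 15, Tpm2 and Anxa1 (7.1% and 6.0%). The counts of 15 are genes, with a match in any promoter of the gene, while the percentages are of promoters. By promoter, the called genes had TGANTCA in 4 of 18, TATAAA in 6, GGGCGG in 8 and the decamer in 2. These motifs do not overlap in the 3 sequences shown. A match of letters is a description and not a site of binding.

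Genes of cell adhesion were the next group. Of 11 tested genes of the basal layer, integrins and hemidesmosome, 2 fell and none rose, with a list median of -0.233. Itgb1, the beta subunit of the integrins that bind collagen and fibronectin, read -1.31, 0.15 and 0.01 on forward arrays and -1.85, -1.87 and -2.61 on reversed arrays. Its forward arrays of repeats 2 and 3 lay at or above 0 while every reversed array was low, and it fell by 1.25 ± 0.18 (SE, n = 3 pairs, adjusted p = 0.0118). Sdc1, a heparan sulfate proteoglycan of the keratinocyte surface, had pairs in repeats 1 and 2 only. Its forward arrays read -0.56 and 0.09 and its reversed arrays -1.43 and -2.97, with a further reversed value of -2.21 in repeat 3. One forward array was slightly above 0, and Sdc1 fell by 1.22 ± 0.20 (SE, n = 2 pairs, adjusted p = 0.0253). Cd44, the hyaluronan receptor, had pair values of -1.05, -0.39 and 0.01 and did not pass (-0.48 ± 0.22, adjusted p = 0.512). The basal keratin Krt5 had pair values of -0.39 and -0.09 (mean -0.24 ± 0.22, adjusted p = 0.826).

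Cav1, the structural protein of caveolae, was the member that fell of the 6 tested in the list of junctions and caveolae. Forward arrays read -1.49, -0.88 and -0.57 and reversed arrays -1.58, -0.68 and -1.82. All 6 were low, the sizes by dye were closer in repeats 1 and 2 than in repeat 3, and Cav1 had a fall of 1.17 ± 0.22 (SE, n = 3 pairs, adjusted p = 0.0422). Cdh3, which encodes P-cadherin of basal cells, stood at -0.64 ± 0.16 (adjusted p = 0.176), and Ctnna1, alpha-catenin, at -0.47 ± 0.15 (adjusted p = 0.264). The 6 tested members had a median of -0.332. In the spinous layer and desmosome list none of 4 tested genes passed in limma, with 1 below 0 at an unadjusted p under 0.05: Pkp1, a desmosomal plaque protein, at -0.51 ± 0.16 (adjusted p = 0.282).

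Matrix and actin genes each had 1 called member. Thbs1, a matricellular protein that is a known target of p53, read -1.24, 0.23 and 0.29 on forward arrays and -1.93, -1.89 and -2.06 on reversed arrays. The forward arrays of repeats 2 and 3 were on the other side of 0, and Thbs1 fell by 1.10 ± 0.20 (SE, n = 3 pairs, adjusted p = 0.0420). Of 16 matrix genes tested it alone passed, and 12 of the 16 were below 0 (median -0.177). Tenascin C, Tnc, stood at -0.53 ± 0.17 (adjusted p = 0.290), and Tgfbi at -0.54 ± 0.20 (adjusted p = 0.375) with pair values of -1.12, 0.16 and -0.66. Tpm2, a tropomyosin that lies along actin filaments, read -0.76, -0.12 and 0.34 on forward arrays and -1.61, -1.42 and -2.19 on reversed arrays. One forward array, of repeat 3, was above 0, and Tpm2 fell by 0.96 ± 0.16 (SE, n = 3 pairs, adjusted p = 0.0253). Of 13 actin genes it was the member that passed, with 10 below 0 and a median of -0.191. In the same list the actin-bundling gene Lima1 stood at 1.21 ± 0.27 (n = 2 pairs, adjusted p = 0.0984), and Myl9, a myosin light chain, at -0.46 ± 0.20 (adjusted p = 0.470).

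Proteases and calcium-binding proteins followed. Ctsl, the lysosomal protease cathepsin L, was low on all 6 arrays, with -0.70, -0.86 and -0.58 on forward and -1.09, -1.59 and -1.82 on reversed arrays. It fell by 1.11 ± 0.17 (SE, n = 3 pairs, adjusted p = 0.0182). The other 4 tested genes of kallikreins and desquamation proteases did not pass, and all 5 were below 0 (median -0.462). Klk5, a kallikrein that cleaves corneodesmosomes, had pair values of -0.90, -0.25 and -1.67 (mean -0.94 ± 0.22, adjusted p = 0.136), and Klk8 stood at -0.46 ± 0.21 (adjusted p = 0.501). In the plasminogen system and matrix proteases, the system in which Serpinb2 acts, none of 8 tested genes passed in limma, and none had an unadjusted p under 0.05.

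Anxa1, an annexin that binds phospholipid in the presence of calcium and is an anti-inflammatory mediator, was low on every array. Forward arrays read -0.73, -0.35 and -0.41, and reversed arrays -0.95, -1.65 and -1.69. The pair values of -0.839, -1.002 and -1.05 were close together, and Anxa1 fell by 0.96 ± 0.17 (SE, n = 3 pairs, adjusted p = 0.0253). It was 1 of 5 annexins tested, all below 0 (median -0.299), and Anxa3 stood at -0.50 ± 0.23 (adjusted p = 0.516). S100a6, calcyclin, had pairs in repeats 1 and 2, with forward values of -0.34 and -0.13 and reversed values of -1.59 and -1.92. Both pairs were near -1, and it fell by 0.99 ± 0.18 (SE, n = 2 pairs, adjusted p = 0.0422). It was the member that fell of 9 in the S100 and antimicrobial list, whose median was -0.0112. S100a9, a subunit of calprotectin, stood at -0.67 ± 0.19 (n = 2 pairs, adjusted p = 0.196), and the siderophore-binding Lcn2 at -0.63 ± 0.21 (adjusted p = 0.298).

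Crabp2, which carries retinoic acid to its nuclear receptors, read -0.93 and -0.19 on forward and -2.06 and -1.56 on reversed arrays in repeats 1 and 2. In repeat 3 it had a reversed value of -1.31 and no forward value. All 5 measured arrays were low, and Crabp2 fell by 1.18 ± 0.21 (SE, n = 2 pairs, adjusted p = 0.0422). It was the member that passed of 10 tested genes of retinoic acid handling, which had a median of -0.0244.

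The remaining named falls were in genes outside these groups. Trex2, a 3' to 5' DNA exonuclease found mainly in keratinocytes, read -0.91 and -2.60 on forward and -0.66 and -1.85 on reversed arrays in repeats 1 and 3, and -0.89 on the forward array of repeat 2, which had no reversed value. All 5 were low. The pairs of -0.78 and -2.23 differed by more than the size of the smaller, and Trex2 fell by 1.504 ± 0.277 (SE, n = 2 pairs, adjusted p = 0.0422). Sh3bp5l read -0.95, -1.62 and -1.79 on forward and -0.07, -1.34 and -2.45 on reversed arrays. It was near 0 on 1 array, the reversed one of repeat 1, and fell by 1.37 ± 0.23 (SE, n = 3 pairs, adjusted p = 0.0253). With the deposited signs kept both means stayed below 0 but lost most of their size (-0.25 for Trex2 and -0.08 for Sh3bp5l, the latter near 0). The falls of both genes thus depend on the dye reading too.

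Nktr, which encodes a cyclophilin-domain protein first described on natural killer cells, had pair values of -0.97, -0.85 and -0.95, the closest to each other among the called genes with 3 pairs. Its arrays read -0.97, -0.31 and -0.16 (forward) and -0.96, -1.40 and -1.73 (reversed). All 6 were low, and Nktr fell by 0.92 ± 0.14 (SE, n = 3 pairs, adjusted p = 0.0150). Ryk, a Wnt receptor with an inactive kinase domain, read -0.69, 0.23 and -0.23 on forward and -1.17, -1.67 and -1.65 on reversed arrays. One forward array, of repeat 2, was above 0, and Ryk fell by 0.86 ± 0.16 (SE, n = 3 pairs, adjusted p = 0.0369).

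In the p53 family list, 2 of 18 tested genes fell (Serpinb5 and Thbs1), none rose, 14 were below 0, and the median was -0.245. Cdkn1a, the cell cycle inhibitor p21, had pair values of -0.87 and -0.60 in repeats 1 and 2 and did not pass (-0.73 ± 0.20, adjusted p = 0.192). Plk2, a p53-induced kinase, stood at -0.76 ± 0.20 (n = 2 pairs, adjusted p = 0.176). Both were below 0 in each pair they had. Of the 26 pathway lists, 12 had a called member and 14 had none.

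**Figure D4:**
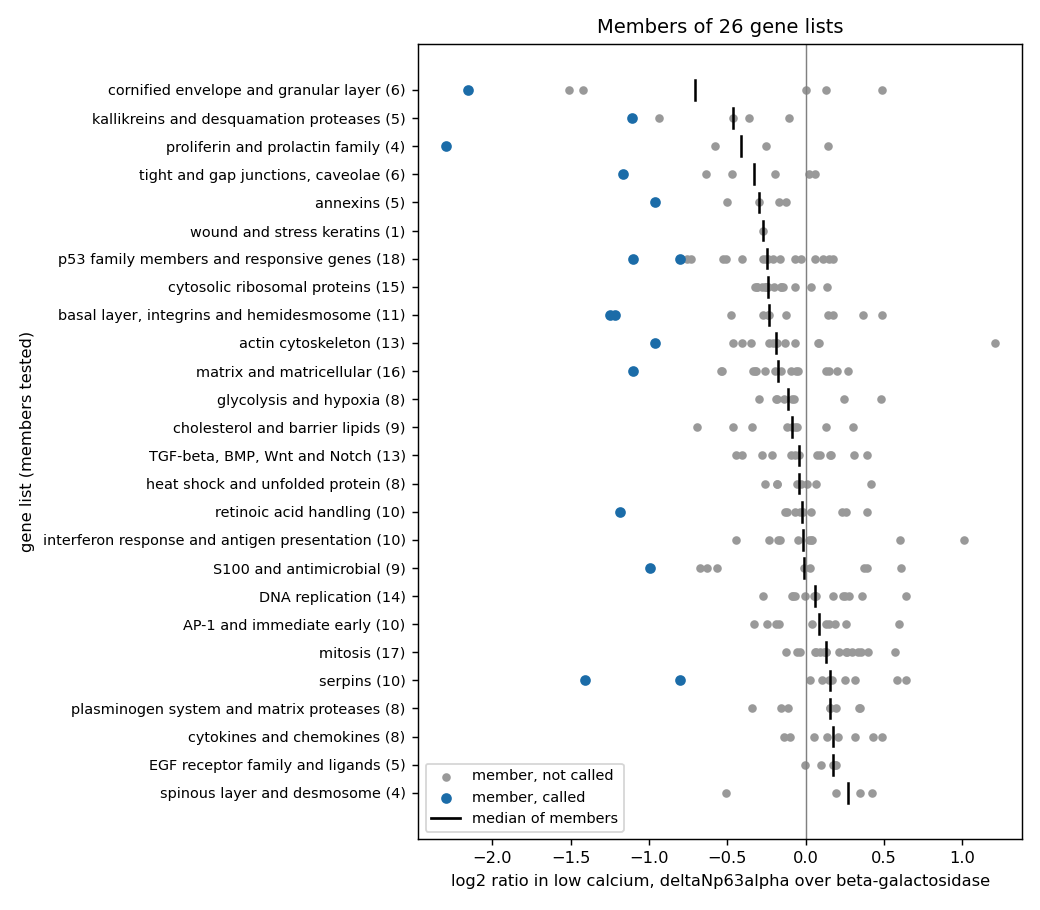
Log2 ratio in low calcium of each tested member of 26 gene lists, ordered by the median (black bar), with called members in blue and the number tested in parentheses. Lists with a call have 1 or 2 called members, at the left of the list, and no member was called to the right of 0. Most lists have a median between -0.5 and 0.3.

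The 14 lists without a call had 256 genes on the array, of which 130 were tested. The rest had under 2 pairs, so the values here do not cover them. The 130 lay between -0.692 and 1.01 (median 0.0269), and limma's smallest adjusted p among them was 0.0829. At an unadjusted p under 0.05 there were 5 below 0 and 8 above, against 252 and 192 of all 4637 rows. For cell division, 9 of 14 genes of DNA replication and 14 of 17 of mitosis were above 0, with medians of 0.0616 and 0.134, and the spindle motor Kif11 stood at 0.57 ± 0.20 (n = 2 pairs, adjusted p = 0.333). Of 15 cytosolic ribosomal proteins 13 were below 0, with a median of -0.241, and none had an unadjusted p under 0.05. Rps6 of the small subunit stood at -0.26 ± 0.14 (adjusted p = 0.591). In sterol synthesis Sqle, squalene epoxidase, stood at -0.69 ± 0.18 (adjusted p = 0.187). The AP-1 subunit gene Fosl1 stood at 0.60 ± 0.19 (n = 2 pairs, adjusted p = 0.284), the chemokine gene Ccl7 at 0.49 ± 0.17 (adjusted p = 0.314), and the interferon-induced Ifit1 at 0.61 ± 0.18 (n = 2 pairs, adjusted p = 0.249).

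Markers of other cell types that a skin culture could hold were tested beside these groups. Of 91 such genes 35 could be tested and none passed in limma, where 0.41% of all rows did. At an unadjusted limma p under 0.05, 7 were below and 3 above 0. These are larger shares than the 252 and 192 of all 4637 rows. The range of the 35 was -0.939 to 0.552 and the median -0.00867. The lowest was Acta1, skeletal muscle actin, with pair values of -1.30, -0.44 and -1.08 (mean -0.94 ± 0.24, adjusted p = 0.163). It was the 1 below 0 among 5 tested muscle markers, with 4 above (median 0.375). The other 6 muscle markers on the array had only the pair value of repeat 1 and were not tested. All 6 were below 0, from -1.18 for Acta2 to -0.21 for Tagln. In high calcium Acta2 was called, at -1.04 ± 0.22 (SE, n = 2 pairs, adjusted p = 0.0481). The 4 tested hair keratins and follicle markers were all below 0 (median -0.525), with Krt34 at -0.61 ± 0.15 (adjusted p = 0.138). The endothelial marker Eng stood at -0.55 ± 0.18 (n = 2 pairs, adjusted p = 0.308), while of 7 tested endothelial markers 3 were below 0 and 4 above (median 0.004). Of 20 keratinocyte markers 8 were tested, and Sprr1a was the one that was called.

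Higher values were as large in size as many of the falls but rarely passed. Of 25 rows beyond 1 unit, 14 were negative, all of them named and 11 called, and 11 were positive, 5 of them named and 1 called. The called row is an unnamed spot, singled out after its values were seen. It read 2.197, 1.388 and 2.387 on forward and 2.03, 0.40 and 0.24 on reversed arrays, above 0 on all 6, and rose by 1.44 ± 0.25 (SE, n = 3 pairs, adjusted p = 0.0253). In repeat 1 the median pair value of the 11 positive rows was 1.74, in repeat 2 it was 0.775, and repeat 1 was the largest pair in 8 of the 11.

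Usp19, a deubiquitinase, had the largest positive mean among named genes with 3 pairs, at 1.28 ± 0.29 (SE, adjusted p = 0.0984). Its pair values were 2.09, 0.71 and 1.04, with the reversed arrays of repeats 2 and 3 slightly below 0 (-0.17 and -0.42). A830082K12Rik, a locus without a named product, stood at 1.05 ± 0.25 (adjusted p = 0.107) with pair values of 1.74, 0.78 and 0.65. Tap1, the peptide transporter of antigen presentation, had the smallest p among named positive genes, with pair values of 0.62 and 1.41 (mean 1.01 ± 0.21, adjusted p = 0.0829). The homeobox gene Shox2 stood at 0.996 ± 0.211 (adjusted p = 0.0984) and the chemokine gene Ccl4 at 0.81 ± 0.19 (adjusted p = 0.136). Both had deposited values below 0 on every low calcium array, so their positive sign rests on the size of the reversed values. Iars2 (0.80 ± 0.19, adjusted p = 0.163) and the glutathione transferase gene Gstm1 (0.60 ± 0.15, adjusted p = 0.171) completed the 8 named genes of smallest p on this side, chosen among those with the same sign in every pair.

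On the other side, Esd stood at -0.96 ± 0.19 (n = 2 pairs), the secreted stress protein gene Manf at -0.78 ± 0.16 (n = 3 pairs), and the adaptor gene Skap2 at -0.66 ± 0.15 (n = 3 pairs, adjusted p = 0.0849). Laptm4a, a lysosomal membrane protein gene, stood at -0.74 ± 0.18 (adjusted p = 0.164). Each of these had the same sign in every pair.

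The same genes in high calcium were set beside these values. In high calcium 107 of 7261 rows (1.47%) were called, and 17 of the 19 rows called in low calcium could be tested there. All 17 had the same sign at both levels, and 11 were called at both. The share of all rows with the same sign at both levels was not counted, so the 17 are a description. Over all probes, turned pair values of a low and a high calcium repeat correlated at r from -0.11 to 0.638. Sprr1a stood at -1.63 ± 0.26 in high calcium (n = 2 pairs, adjusted p = 0.00934), Serpinb2 at -1.57 ± 0.21 (n = 2 pairs, adjusted p = 0.00605) and Serpinb5 at -0.89 ± 0.19 (n = 2 pairs, adjusted p = 0.0371). Ctsl, Tpm2, Ryk, S100a6, Sh3bp5l and Trex2 were called only in low calcium, with high calcium values of -0.72, -0.65, -0.58, -0.59, -0.29 and -0.49.

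The difference between calcium levels itself was tested in the same limma fit and passed for 0 of 4198 rows (the smallest adjusted p was 0.768, and 105 rows had an unadjusted p below 0.05). Among the 17 rows the largest difference, high minus low, was 1.08 ± 0.37 for Sh3bp5l (unadjusted p = 0.0113), followed by 1.01 ± 0.39 for Trex2 (unadjusted p = 0.0234), and both had an adjusted p of 0.999. The 6 genes called only in low calcium are thus not shown to differ between the levels. For Serpinb5 the difference was -0.08 ± 0.25, and for Serpinb2 it was -0.16 ± 0.27. Prl2c5 had no pair value in high calcium, where its forward arrays of repeats 1 and 2 read -2.03 and -2.13 and no reversed array had a value. Crabp2 had a single high calcium pair value of -1.30.

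**Figure D5:**
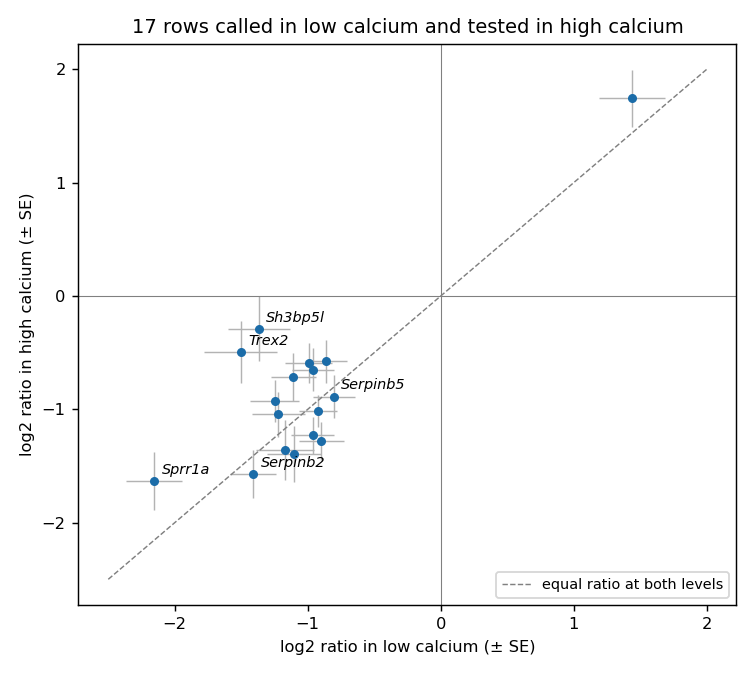
Log2 ratio with its SE in low calcium (horizontal) and high calcium (vertical) of the 17 rows called in low calcium and tested in high calcium, with a dashed line where both are equal. All points share a sign at both levels, and Sh3bp5l and Trex2 lie farthest above the line among the genes that fell.

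Each array has its own experiment ID in the labels, and the IDs were grouped here into runs of nearby numbers, which the labels do not call batches. Low calcium repeat 1 lies in a run with high calcium repeats 1 and 2. Turned pair values of low calcium repeat 1 correlated with those at r = 0.611 and 0.638 over probes, more than with the other low calcium repeats. The pairs outside this run did not show such a pattern. Low calcium repeat 2 correlated at r = -0.0787 with low calcium repeat 3, and at -0.11 with high calcium repeat 3. For low calcium repeat 3, r was 0.308 with high calcium repeat 3, but 0.423 with high calcium repeat 2, from the other run. The correlations thus did not follow the runs in every case. With the run as a block 42 rows were called, and they included all 19. Within repeat 1 the 18 called lower rows had a median of -1.10, within repeat 2 of -0.876 and within repeat 3 of -1.20, and the 11 positive rows beyond 1 unit had medians of 1.74, 0.775 and 1.01. These rows were picked on the same pairs, so their sign in each repeat is a description.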

How the data were processed

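The authors deposited 1 table of log2 ratios for 12 two-colour spotted arrays. The log base was taken as 2 from the range of the values. Dyes were attached with a Genisphere kit, per the labels. How the spots were scanned, corrected, normalised and filtered is not stated there, so signal over background is unknown. The precision given rests on the number and spread of the pair values and holds no measure of spot quality. Of 9558 probes, 7457 had 1 gene symbol in the platform annotation, 481 had several and 1620 were unnamed. A RefSeq table (GRCm38.p6) matched 7368 by gene ID.

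Arrays were centred on their medians. The pair value, (forward - reversed)/2, was missing where either array was, and probes of a gene were then averaged. Dye bias cancels only where both arrays carry it equally. The 3 low and 3 high calcium pairs were fitted together in limma 3.58.1 (R 4.3.3, lmFit and eBayes), and p-values were adjusted by Benjamini-Hochberg over rows with at least 2 low calcium pairs. Called means an adjusted p under 0.05. Fold is 2 to the size of the log2 ratio. The script was tested on simulated pairs.

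Named genes were Trp63, Trp73, Serpinb5, all named called genes, the 8 nearest uncalled genes in each direction, up to 3 members of smallest p per list, and Krt5, Krt10, Krt14, Flg, Lor and Cdkn1a. Krt14 could not be described, as no probe carried its symbol in the annotation used. The members and the 33 gene lists were chosen with earlier results of these data known. Alternatives for orientation, missing arrays, scaling, blocks, variance and left-out repeats are given in the closing section.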

Additional observations from a re-analysis of the deposited data

Results flagged for a closer look

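Among the genes described, 4 had every low calcium pair on one side of 0 and every high calcium pair on the other. The hair keratin gene Krt32 stood at -0.437 in low and 0.506 in high calcium, a difference (high minus low) of 0.943 (limma adjusted p = 0.768). Irf7, a regulator of interferon genes, stood at -0.444 in low calcium (pair values of -0.039 and -0.848) and at 0.534 in high calcium, a difference of 0.978 (adjusted p = 0.999). Des, the muscle filament protein desmin, stood at 0.486 and -0.450, a difference of -0.937 (adjusted p = 0.999). Serpinb8 stood at 0.167 and -0.443, a difference of -0.610 (adjusted p = 0.999). None of the 4 differences passed the test.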

How the results depend on the processing

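The reading of the dyes mattered most. With the deposited signs kept, 719 rows were called in low calcium in place of 19, and these log2 ratios took the other sign: Trp73 -0.088, Serpinb5 0.70, Sdc1 0.98, Cav1 0.19, Ctsl 0.39, Ryk 0.64, Serpinb2 0.72, Prl2c5 0.40, Sprr1a 0.91, Crabp2 0.62, Itgb1 0.86, S100a6 0.76, Nktr 0.44, Tpm2 0.78, Thbs1 0.86, Anxa1 0.47, Tap1 -0.42, Shox2 -2.14, Lima1 -0.80, A830082K12Rik -0.16, Ccl4 -1.55, Iars2 -0.61, Gstm1 -0.56, Esd 0.80, Manf 0.24, Skap2 0.48, Acta1 1.08, Laptm4a 0.79, Krt5 1.39, Cdkn1a 0.83, Plk2 0.49, Lce1m 0.45, Pkp1 0.88, Cd44 0.70, Krt17 0.98, Serpina1b -0.29, Klk8 0.53, Tnc 0.67, Tgfbi 0.34, Prl2c2 0.61, Anxa3 0.45, S100a9 0.45, Ccl7 -0.28, Fosl1 -0.25, Cdh3 0.64, Ctnna1 0.72, Myl9 1.06, Kif11 -0.68, Ifit1 -0.57, Rps6 0.82, Sqle 0.56, Des -0.86, Krt32 0.037, Ppl -0.41, Tgm3 -0.28, Serpinb8 -0.007 and Serping1 -1.83. Forward arrays alone called 33 rows and turned these: Shox2 -1.37, Ccl4 -0.85, Acta1 0.14, Laptm4a 0.049, Krt5 1.15, Cdkn1a 0.13, Pkp1 0.37, Cd44 0.23, Krt17 0.71, Klk8 0.071, Tnc 0.14, Prl2c2 0.037, Ctnna1 0.25, Myl9 0.59, Kif11 -0.11, Rps6 0.56, Des -0.37, Tgm3 -0.25 and Serping1 -1.58. Reversed arrays alone, turned, called 330 rows and gave Trp63 0.67, Krt34 0.33, Lor -0.38, Lcn2 0.85 and Irf7 0.24. Counts of calls were 49 with low calcium pairs alone, 7 with arrays as replicates and the pair as a random block, 11 with robust variances, 0 with pairs of 1 array kept (516 rows at an unadjusted p under 0.05), 0 with arrays on the same spread (276 rows) and 42 with the run of nearby array IDs as a block. Tgm3 read -0.058 with pairs of 1 array kept and -0.0080 with arrays on the same spread. They ranged from 5 to 10 when 1 low calcium repeat was left out and from 27 to 50 when 1 high calcium repeat was. Lor ranged from -0.081 to 0.146 over left-out low calcium repeats, with -0.065 without repeat 1. Whether the repeat numbers pair low with high calcium samples is not known. Deviations from the mean of each calcium level correlated at r = -0.0218, -0.104 and 0.216 between same-numbered repeats over 1361 rows. Between repeats of different number r ran from -0.292 to 0.269, so these values cannot decide it. With the repeat number as a replicate block 62 rows were called, 18 of the 19 among them, and Trp63 read 0.17. The difference between calcium levels was called for 1 row under the replicate block, under the block of array IDs, and without high calcium repeat 1 or 2 (0 to 1 over left-out repeats). The row was each time Serping1, a complement inhibitor gene named here after its values were seen, with high minus low from -3.48 to -1.74. The high calcium pair values of Serping1 were -0.29, 0.26 and -3.23 (repeats 1, 2 and 3). Behind the lowest of them lay -7.36 (forward) and 0.91 (reversed, turned), which have opposite signs. Leaving out high calcium repeat 3 gave no called difference. In the fits with 49, 50 and 62 calls limma estimated the same variance for all rows. The count stayed within 1.5 times 19 without centring (19), with probes tested singly (23), over rows with all 3 pairs (16) and with genes averaged before pairing (19), an alternative chosen after the data were seen. Over all alternatives the 69 genes gave 1012 values of the same direction and side of the threshold, 102 that lost and 95 that gained the call, and 86 of the other sign. The cause of these changes was not tested. With 3 pairs and many missing values, differences under 0.802 were not called.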
